A study of Macaca fascicularis with 15 samples.

Results

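CD74, AIF1, CSF1R, CX3CR1, C1QA and C1QC, a set of genes of microglia and of antigen presentation, were followed across whole eye, whole retina, central retina and peripheral retina of the cynomolgus monkey, Macaca fascicularis. The members were the entries with these 6 names in the first column of the deposited tables, and all 6 were present in every table, out of 12995 entries kept. RNA sequencing (RNA-seq) libraries came from wild type animals, and the tissue had been stored in RNALater, a solution that preserves RNA. The labels state that 1 eye went into each sample, and they give no treatment, animal, age, sex or date. Of 15 records, 11 had a usable table: 4 from central retina, whose table headers name the macula, 3 from peripheral retina, 2 from whole retina and 2 from whole eye. A further 4 records, of whole tissue, were not analysed here. Biological replicates are stated for eye and retina samples, and nothing states that the regional samples came from separate animals. The p-values therefore reflect only how far these particular samples spread, and that spread may be technical.

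Microglia are the resident macrophages of the neural retina, where they lie mainly in the synaptic and inner layers, clear debris and prune synapses. Their survival depends on signalling through CSF1R, the receptor for the growth factors CSF1 and IL34, and CX3CR1 is the receptor for fractalkine, the product of CX3CL1, which neurons carry on their surface. C1QA and C1QC encode chains of C1q, the recognition molecule that starts the classical complement pathway, and AIF1 encodes the calcium-binding protein IBA1 used to stain microglia. CD74, the invariant chain, escorts MHC class II molecules on their way to meet peptide in the endosome and is also a receptor for the cytokine MIF. None of the 6 genes is restricted to microglia: macrophages and monocytes outside the retina share most of them, and B cells and dendritic cells carry CD74.

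The values are the authors' normalized signal, 1 per gene and library, in a unit that the sources used here do not state. The read depth behind each value is not known, so no counting error is given. A difference is always between group means of log2(value + 1), which understates the change of low genes such as CX3CR1 and AIF1, and ratios are of group means of the deposited values. All 6 genes had a mean of at least 1 in each of the 4 groups, so none was tested only because it was high in 1 tissue. In bulk tissue, fewer cells of a type and less RNA per cell cannot be told apart.

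The tissue labels were checked against marker genes, summed within a library. The 4 whole libraries held tissue other than neural retina, and the whole retina libraries were no exception. The 7 fibrous stroma genes summed to 509 to 679 in whole eye and 419 to 469.6 in whole retina, but to 4.44 to 7.16 in central retina and 12.4 to 19.4 in the periphery. The 4 muscle genes measured summed to 578 to 1207 and 1201 to 1399 in whole eye and whole retina, and to at most 12.01 in any regional library. The 6 pigment epithelium genes reached 2302 to 2463 in whole retina, near the 2479 to 2778 of whole eye, against 247 to 350.4 in central retina and 658 to 959 in the periphery. Rod genes were high in every library: 8 of them summed to between 10780 and 25950. The 7 genes of blood vessels and pericytes that were measured summed to 213 to 285 in the whole libraries and 55.0 to 94.7 in the regional ones. Red blood cell genes summed to 139 to 478 in whole retina, 18.2 to 83.6 in the regional libraries and 1835 to 3030.0 in whole eye. Where the 6 genes were higher in whole eye and whole retina than in regional retina, the marker sums other than that of rods moved with them, and their part in the results was not tested.

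**Figure D1:**
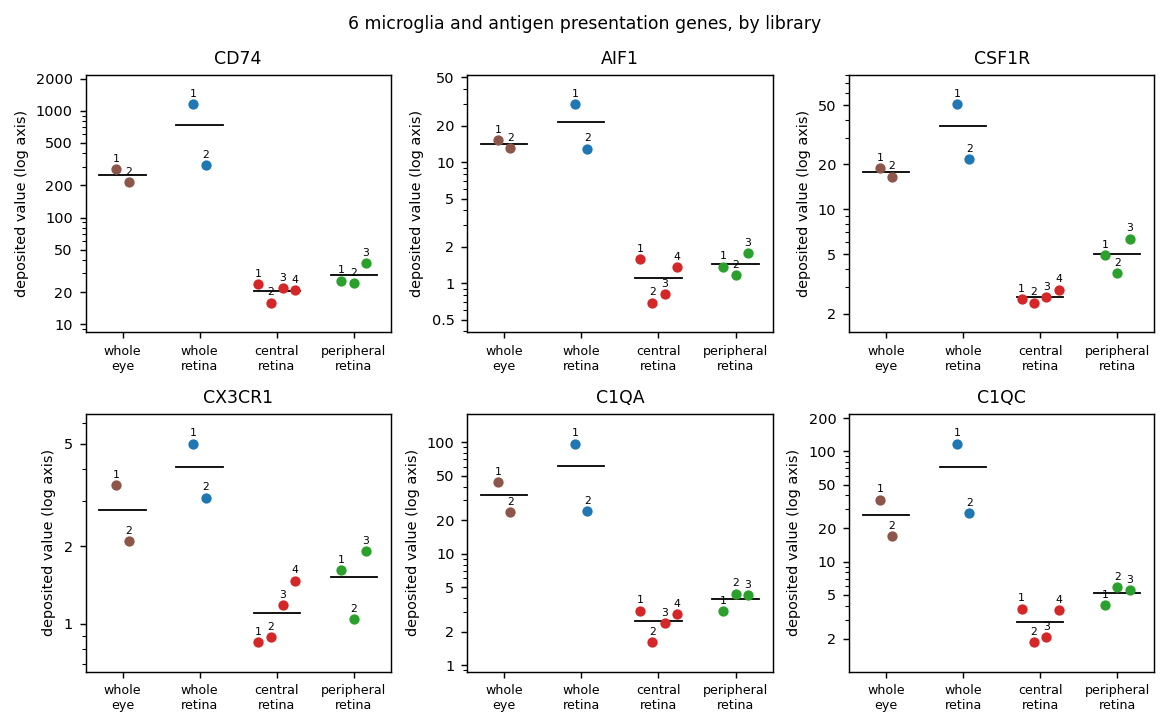
Deposited value (log axis) of each gene in the 11 libraries, grouped by tissue; points are libraries with their replicate number and bars are group means. All 4 whole eye and whole retina libraries lie above all 7 regional libraries for each gene, and whole retina replicate 1 is the highest point in every panel.

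The 6 genes shared 1 order of group means: whole retina highest, then whole eye, peripheral retina and central retina. For each of the 6, the lowest of the 4 whole libraries lay above the highest of the 7 regional ones, but by margins that differed. That margin was 7.25-fold for AIF1, 5.76-fold for CD74, 5.34-fold for C1QA, 2.90-fold for C1QC, 2.61-fold for CSF1R and 1.09-fold for CX3CR1. The plot of values by library shows the gap and, within whole retina, a wide spread between its 2 libraries. The share of all genes tested with the same order of means or the same separation was not counted. By limma, 24.3% to 34.2% of all genes tested were called lower in a region than in a whole tissue.

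CSF1R, the growth factor receptor, had values of 18.8 and 16.6 in whole eye and 50.6 and 21.6 in whole retina. It had 2.51, 2.37, 2.59 and 2.90 in central retina, and 4.94, 3.74 and 6.36 in peripheral retina. The 4 central libraries lay within a narrow band and all 3 peripheral libraries were above it. Group means were 17.7 ± 1.58 (SD, n = 2) in whole eye, 36.1 ± 20.5 (SD, n = 2) in whole retina, 2.59 ± 0.224 (SD, n = 4) in central retina and 5.01 ± 1.31 (SD, n = 3) in the periphery. The mean was thus 13.9-fold higher in whole retina than in central retina, 7.20-fold higher than in peripheral retina and 2.04-fold higher than in whole eye.

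CX3CR1, the fractalkine receptor, had the flattest of the 6 profiles. Its values were 3.45 and 2.09 in whole eye, 5.01 and 3.09 in whole retina, 0.85, 0.89, 1.18 and 1.47 in central retina and 1.62, 1.04 and 1.91 in peripheral retina. The central and peripheral libraries interleaved, and the lower whole eye library was only just above the highest peripheral one. Means were 2.77 ± 0.962 (SD, n = 2), 4.05 ± 1.36 (SD, n = 2), 1.10 ± 0.289 (SD, n = 4) and 1.52 ± 0.443 (SD, n = 3) in the same tissue order. Whole retina stood 3.69-fold above central retina, the smallest such ratio among the 6 genes.

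AIF1, which encodes IBA1, measured 15.2 and 12.95 in whole eye and 30.0 and 12.9 in whole retina. In central retina it measured 1.57, 0.69, 0.81 and 1.36, and in peripheral retina 1.37, 1.16 and 1.78. Whole retina replicate 2 therefore lay level with whole eye, and the regions overlapped. The means were 14.1 ± 1.58 (SD, n = 2) in whole eye, 21.5 ± 12.1 (SD, n = 2) in whole retina, 1.11 ± 0.424 (SD, n = 4) in central retina and 1.44 ± 0.315 (SD, n = 3) in the periphery, a ratio of 19.4 between whole and central retina.

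C1QA, which encodes the A chain of C1q, measured 44.0 and 23.5 in whole eye, 97.0 and 24.15 in whole retina, 3.09, 1.62, 2.40 and 2.86 in central retina and 3.04, 4.40 and 4.29 in peripheral retina. C1QC, which encodes its C chain, measured 36.4 and 17.1, 117 and 27.6, then 3.76, 1.88, 2.09 and 3.64, and 4.07, 5.90 and 5.55 in the same order. Both chains were low in central replicate 2 and high in the first library of each whole tissue. Of the C1q genes, C1QC separated all 3 peripheral from all 4 central libraries, and C1QA did not, because peripheral replicate 1 fell just below central replicate 1. The mean of C1QA was 24.3-fold and that of C1QC 25.5-fold higher in whole than in central retina. The gene of the B chain was not analysed here.

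CD74, the invariant chain, measured 283 and 216 in whole eye and 1149 and 308 in whole retina. It measured 23.9, 16.0, 22.04 and 21.1 in central retina, and 25.7, 24.35 and 37.5 in peripheral retina. All 3 peripheral libraries were above all 4 central ones, and both whole retina libraries were above both whole eye libraries. Means were 249.5 ± 47.5 (SD, n = 2) in whole eye, 729 ± 595 (SD, n = 2) in whole retina, 20.8 ± 3.39 (SD, n = 4) in central retina and 29.2 ± 7.23 (SD, n = 3) in the periphery. The ratio of whole to central retina was 35.1, the largest of the 6.

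Central and peripheral retina were compared first, a comparison of the cone-rich macula with the retina outside it. All 6 genes had lower means in central retina, but none passed the test (limma on log2 values, Benjamini-Hochberg adjusted p under 0.05), against 21.3% of the 11933 genes tested. The largest differences were those of CSF1R, at -0.72 ± 0.24 (SE; 95% confidence interval -1.25 to -0.19), and C1QC, at -0.71 ± 0.42 (SE; -1.64 to 0.22). By limma, their adjusted p-values were 0.0547 and 0.254, and only CSF1R had an unadjusted p under 0.05, at 0.0122. The spread behind these errors is shared by all 4 groups, so it takes in the 2 widely differing whole retina libraries. With only the 2 regions fitted, the SE was 0.15 for CSF1R and 0.21 for C1QC (limma adjusted p = 0.00887 and 0.0349). That fit was the 1 of 22 alternatives that called C1QC. The differences of C1QA and CD74 were -0.50 (-1.35 to 0.35) and -0.46 (-1.24 to 0.32), with adjusted p-values of 0.383 for both by limma. CX3CR1, at -0.26 (-0.69 to 0.17), and AIF1, at -0.22 (-0.77 to 0.33), had adjusted p-values of 0.364 and 0.56 by limma. The intervals of 5 genes include 0 and also include a fall of 0.69 or more on the log2 scale, so no equality of the regions is shown. The median difference of the 6 was -0.48, and that of all genes tested -0.01. Central CSF1R was lower by a margin that passed the test in 9 of 22 alternative fits, among them those that left out whole retina replicate 1 (limma adjusted p = 0.00727) or replicate 2 (0.00761). Over all 22 the adjusted p of CSF1R ranged from 0.00727 to 0.166.

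Whole retina was compared with whole eye. The 5 lens genes measured summed to 2177 to 2291 in whole eye, 298 to 457 in whole retina and at most 3.64 in the regions. The 3 corneal and conjunctival genes measured summed to 1013 to 1276 in whole eye and 13.3 to 61.5 in whole retina. Stroma, muscle and pigment epithelium genes, given above, did not set these 2 tissues so far apart. Means were higher in whole retina for all 6 genes, by ratios of 1.46 (CX3CR1) to 2.92 (CD74), and 0 of 6 passed the test in limma, against 2.27% of all genes tested. CD74 differed by 1.26 ± 0.47 (SE; 0.24 to 2.29, adjusted p = 0.34) and CSF1R by 0.87 ± 0.32 (SE; 0.18 to 1.57, adjusted p = 0.329), the 2 genes with an unadjusted p under 0.05 in limma. C1QC followed at 1.16 (adjusted p = 0.496), with C1QA at 0.58 (0.729), AIF1 at 0.47 (0.67) and CX3CR1 at 0.42 (0.611), all by limma. Those 4 genes overlapped between the groups. The excess was mostly that of 1 library. Without whole retina replicate 1, the difference was 0.31 for CD74 and 0.28 for CSF1R, and it was below 0 for AIF1 (-0.11) and C1QA (-0.40). Without replicate 2, 5 of the 6 genes, all but CX3CR1, were called higher in whole retina than in whole eye, as were 4.11% of all genes tested in that fit.

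The regional libraries were then compared with whole retina. All 6 genes were lower in central than in whole retina, with 29.7% of all genes tested called lower in that comparison. CD74 fell by 4.79 on the log2 scale (SE 0.40, adjusted p = 3.14e-06 by limma), and C1QC and C1QA fell by 3.96 (SE 0.48, 4.68e-05) and 3.85 (SE 0.44, 2.97e-05). AIF1 fell by 3.32 (SE 0.28, 3.45e-06), CSF1R fell by 3.25 (SE 0.27, 3.09e-06) and CX3CR1 fell by 1.25 (SE 0.22, 0.00073). The median of the 6 was -3.59, against -0.10 over all genes tested. Peripheral retina was also lower than whole retina for 6 of 6 genes, with 24.3% of all genes called lower. There the differences ran from -4.33 for CD74 (limma adjusted p = 1.73e-05) and -3.35 for C1QA (0.000219) to -2.53 for CSF1R (5.43e-05) and -0.99 for CX3CR1 (0.00685). Both comparisons share the whole retina libraries. Replicate 2 alone still stood 14.8-fold (CD74), 11.7-fold (AIF1), 9.69-fold (both C1q genes), 8.34-fold (CSF1R) and 2.81-fold (CX3CR1) above the central mean. Without replicate 1, the peripheral call was lost for CX3CR1 (limma adjusted p = 0.0699, the highest over its 21 alternatives, whose lowest was 0.00456), and the other 5 genes stayed lower in both regions.

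The same genes were also lower in the regions than in whole eye. All 6 passed in central retina, where 34.2% of all genes tested were called lower, and 5 of 6 in peripheral retina, where 27.6% were. Central retina differed from whole eye by -3.53 for CD74, -3.27 for C1QA, -2.86 for AIF1, -2.80 for C1QC, -2.38 for CSF1R and -0.83 for CX3CR1, with limma adjusted p-values from 9.26e-06 (AIF1) to 0.00797 (CX3CR1). Peripheral retina differed by -3.07 for CD74, -2.77 for C1QA, -2.63 for AIF1, -2.09 for C1QC and -1.66 for CSF1R, with limma adjusted p-values from 4.3e-05 (AIF1) to 0.0069 (C1QC). CX3CR1 differed by -0.57 there and missed the threshold (limma adjusted p = 0.0712, unadjusted 0.0316). Leaving out whole eye replicate 1 ended the calls of CX3CR1 in central retina and C1QC in peripheral retina (limma adjusted p = 0.1 and 0.0854). CX3CR1 in peripheral retina passed without whole eye replicate 2 (limma adjusted p = 0.042) or without whole retina replicate 1 (0.048) or 2 (0.0473), and with the replicate block (0.0325). Over all its alternatives the adjusted p ranged from 0.0325 to 0.657.

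**Figure D2:**
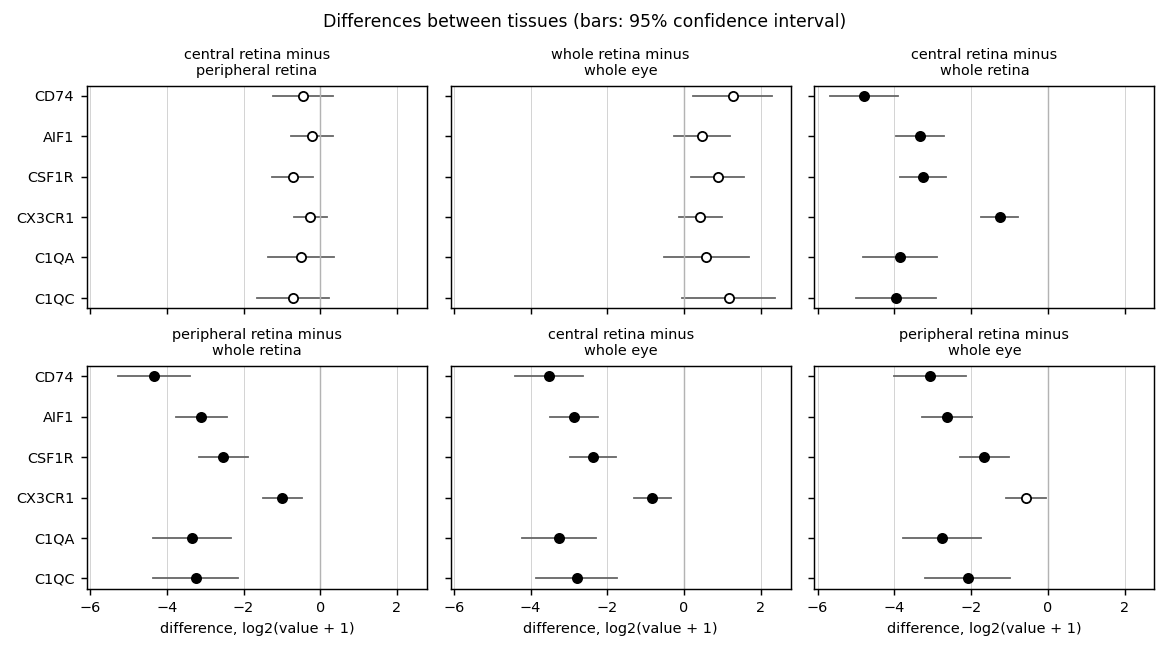
Difference in mean log2(value + 1) for each gene in the 6 comparisons, with the 95% confidence interval from limma; filled points have an adjusted p under 0.05. No point is filled in the comparison of central with peripheral retina or of whole retina with whole eye, and CX3CR1 lies nearest 0 in the 4 comparisons of a region with a whole tissue.

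The 6 genes did not keep a fixed ratio to each other. C1QA and C1QC, whose products are assembled into the same molecule, kept the steadiest one: within a library, their log2(value + 1) differed by amounts that spanned only 0.79 over the 11 libraries. C1QA exceeded C1QC by 0.27 to 0.44 in whole eye, and was below it by 0.18 to 0.27 in whole retina and by 0.31 to 0.35 in peripheral retina (C1QA minus C1QC -0.27 to -0.18 and -0.35 to -0.31). Pairs with CX3CR1 moved most. CD74 minus CX3CR1 was 5.996 to 6.13 in whole eye and 6.24 to 7.58 in whole retina, but 3.16 to 3.75 in central retina and 3.35 to 3.73 in the periphery. CD74 minus CSF1R was 2.33 to 2.83 in central retina and 2.17 to 2.42 in the periphery, ranges that overlap. These ratios are between genes of unstated length scaling, so only their change across libraries can be read.

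For each gene, the 3 tested genes outside the set with the most similar profile were found by the root mean square difference of log2(value + 1), centred on each gene's mean, over the 11 libraries. For CD74 they were MAMU-DMA (0.29), which encodes a chain of the molecule that loads peptide on MHC class II, LOC721048 (0.32) and TIMP1 (0.38), an inhibitor of matrix proteases. AIF1 lay closest to TYROBP (0.16), an adaptor of myeloid receptors, FOLR2 (0.21), a folate receptor of tissue macrophages, and IFITM3 (0.22), an interferon-induced membrane protein. CSF1R lay closest to MSN (0.26), the cytoskeletal linker moesin, LOC711432 (0.26) and CASP12 (0.29). CX3CR1 lay closest to LOC722281 (0.12), and then to CTSA (0.14) and SGSH (0.15), which encode lysosomal enzymes. C1QA had C1QC as its nearest gene of the set (0.255), and outside it LOC719379 (0.23), BST2 (0.26), an interferon-induced antiviral protein, and TIMP1 (0.26). C1QC was followed by LOC719379 (0.29), LOC694029 (0.34) and TYROBP (0.35). The nearest gene of the set to CX3CR1 was CSF1R, at 0.81, farther than for any other of the 6.

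Some names in the tables share a start with another name, and values of such pairs can look exchanged between libraries. CD2 and CD200 show it: CD2, a T cell surface gene, was listed at 0 in the 3 libraries where CD200 was 43.3, 43.4 and 50.5, and CD200 was at most 0.33 in the others. Among the 6 genes, AIF1 shares its start with AIF1L and CSF1R with CSF1. AIF1L, a related calcium-binding protein, ranged from 5.98 to 8.15 in the whole libraries, 2.48 to 5.32 in central retina and 4.83 to 8.89 in the periphery. CSF1 was lower than CSF1R in all 11 libraries, and no library showed an exchange like that of CD2. AIF1L was above AIF1 in every regional library and below it in every whole library. Calls for AIF1 and CSF1R between a region and a whole tissue held when each was summed with its partner. The difference of AIF1 shrank, in peripheral retina against whole eye from -2.63 to -1.29 (limma adjusted p = 0.00508). The names TYROBP, CASP12, P2RY12, CD53, MIF, CD59, CD46, C3 and PSMB10, used here, also share a start with another name.

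The ligands of the 2 receptors and of CD74 did not share 1 pattern. CX3CL1, which encodes fractalkine, measured 46.4, 33.7, 41.0 and 48.15 in central retina and 23.45, 19.4 and 21.6 in peripheral retina. In whole eye it measured 20.8 and 22.7, and in whole retina 36.4 and 25.6. The 4 central libraries were above all peripheral and whole eye libraries, and CX3CL1 was called higher in central than in peripheral retina (0.94 ± 0.15 SE, limma adjusted p = 0.00146) and than in whole eye (0.92 ± 0.17 SE, 0.00101). Its receptor gene CX3CR1 had its lowest mean in central retina. MIF, the cytokine that binds CD74, measured 369.7, 343, 412 and 571 in central and 179.9, 223 and 235 in peripheral retina, a difference of 0.97 ± 0.17 (SE, limma adjusted p = 0.00257). MIF was as high in whole eye, at 384 and 347, and in whole retina, at 347 and 328, as in the lower central libraries.

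IL34 and CSF1, which encode the growth factors of CSF1R, were low in both regions, as the receptor was. IL34 measured 55.2 and 41.3 in whole eye, 70.3 and 56.9 in whole retina, 8.61 to 10.5 in central retina and 12.4 to 14.3 in the periphery. It was lower in central than in whole retina by 2.60 on the log2 scale (difference -2.60 ± 0.14 SE, limma adjusted p = 1.43e-07). The central to peripheral difference, -0.44 ± 0.13 (SE, limma adjusted p = 0.0302), was lost on leaving out any 1 of central replicates 1 and 3 or peripheral replicates 1, 2 and 3, with adjusted p up to 0.0936. CSF1 measured 2.56 and 2.47 in whole eye, 8.11 and 2.60 in whole retina, 0.83 to 1.12 in central retina and 0.54 to 0.76 in the periphery. Its central and peripheral means were under 1, so it was tested only through the whole tissues, and its call in central against whole retina was lost under the replicate block (limma adjusted p = 0.0505, the highest over its alternatives). Of the 4 ligand genes, 2 were called higher and 1 lower in central than in peripheral retina, beside 1493 and 1045 of all 11933 genes tested. Of the 4, 2 were lower in central and 3 in peripheral than in whole retina, beside 29.7% and 24.3% of all genes tested. Of the 3 with a mean of at least 1 in both groups, 1 was lower in central and 2 in peripheral retina. MIF, the ligand added in the latter, lost that call in 7 of 21 alternatives, among them those without whole retina replicate 1 or 2 or peripheral replicate 1 (limma adjusted p up to 0.341). Against whole eye, CSF1 and IL34 were lower in both regions and MIF in peripheral retina. The CSF1 calls were lost under quantile scaling and without either whole eye library. That of MIF was lost under quantile scaling and without whole eye replicate 1.

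**Figure D3:**
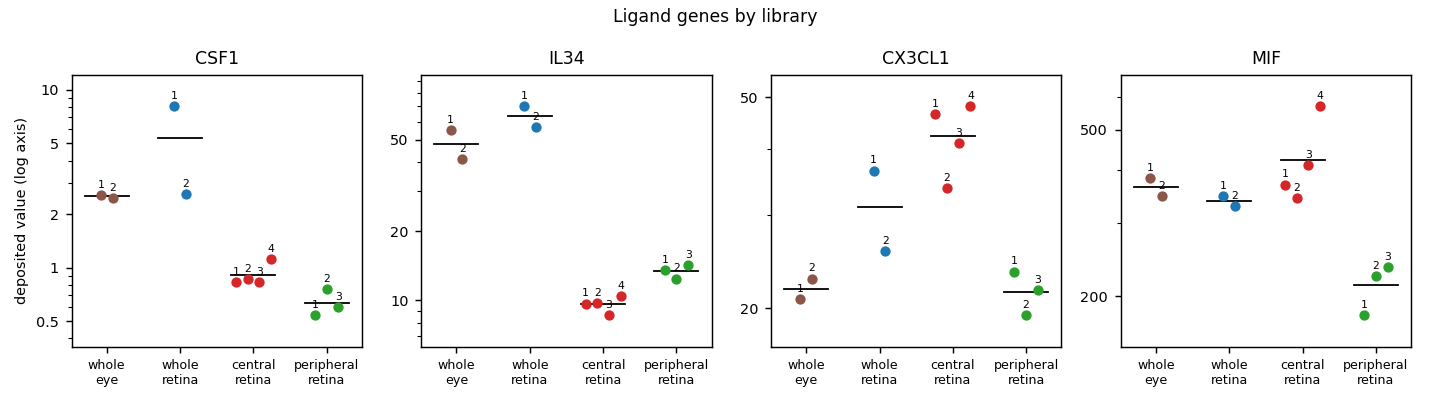
Deposited value (log axis) of CSF1, IL34, CX3CL1 and MIF in the 11 libraries, grouped by tissue; points are libraries with their replicate number and bars are group means. CX3CL1 and MIF are higher in the 4 central than in the 3 peripheral libraries, whereas IL34 is lower in all 7 regional libraries than in the 4 whole ones.

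Other microglia genes were counted in a list of 22, of which 10 were measured and 9 tested. In each of the 4 comparisons of a region with a whole tissue, 8 of 9 were called lower and P2RY12 was not called. Of all genes tested, 24.3% to 34.2% were called lower in these comparisons. Of these 9, only 5 had a mean of at least 1 in both groups compared, and 4 of those 5 were called lower. The other 4 were tested only through their level in the whole tissues, so the filter favoured a difference in this direction without fixing the call. OLFML3, a secreted glycoprotein, measured 61.5, 42.2, 69.1 and 59.8 in the whole libraries, 1.14 to 1.92 in central retina and 3.05 to 3.44 in the periphery. It was the 1 gene of the list called between the regions, lower in central retina (-0.77 ± 0.15 SE, limma adjusted p = 0.00514). Of all genes tested, 8.76% were called lower there, and 1 of 9 is near that share. FCER1G and TYROBP, adaptors of myeloid receptors, differed by -4.27 and -3.60 between central and whole retina (limma adjusted p = 1.02e-07 and 2.35e-06). CD53, a leukocyte tetraspanin, measured 21.2 and 4.55 in whole retina and 0.26 to 0.58 in the regions, and was tested only through its level in the whole tissues. Between whole retina and whole eye 0 of the 9 passed in limma, and 4 had an unadjusted p under 0.05.

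P2RY12, the ADP receptor by which resting microglia sense injury, had another pattern. It measured 1.41 and 1.61 in whole eye, 2.50 and 2.19 in whole retina, 0.74, 3.15, 6.52 and 13.2 in central and 3.96, 3.89 and 1.25 in peripheral retina. The highest value of all 11 was that of central replicate 4, and the lowest that of central replicate 1. The central minus whole retina difference was 0.66 ± 0.64 (SE, -0.75 to 2.07, limma adjusted p = 0.425). P2RY1, whose name shares the start, measured 1.61 in central replicate 1 and 1.54 in peripheral replicate 3, the 2 lowest regional libraries for P2RY12, and 0.40 to 0.70 in the other regional libraries.

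Complement genes beyond C1q were lower in the regions too. Of 17 listed, 9 were tested. All 9 were called lower in central and in peripheral than in whole retina, beside 29.7% and 24.3% of all genes tested. Of the 9, 4 and 5, respectively, had a mean of at least 1 in both groups. Against whole eye, 7 of 9 were lower in each region, beside 34.2% and 27.6% of all genes tested, with C3 and C4B not called. Between the regions, 4 of 9 were lower in central retina, where 8.76% of all genes tested were called lower. Of the 4 with a mean of at least 1 in both regions, 3 were lower. CFB, a factor of the alternative pathway, measured 0.26 to 0.48 in central, 2.06, 5.37 and 2.63 in peripheral retina, and 50.6 to 84.9 in the whole libraries (central minus peripheral -1.61 ± 0.25 SE), with a central mean under 1. SERPING1, the inhibitor of the C1 proteases, measured 4.23 to 5.66 in central retina and 11.2 to 14.7 in the periphery, against 86.1 to 206 in the whole libraries (-1.30 ± 0.17 SE, limma adjusted p = 0.000375). The pigment epithelium sums given above were also lower in central than in peripheral retina, but the genes behind them did not move alike. Of those genes 4 were called lower in central retina, MITF was called higher and RPE65 was not called (-0.26, limma adjusted p = 0.185). The part of such tissue was not tested.

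The other complement genes called between the regions are inhibitors on the cell surface. CD46 differed by -0.76 (limma adjusted p = 0.015) and CD59 by -0.41 (0.0436). The CD46 call was lost without peripheral replicate 1 or 2 and under the replicate block, with limma adjusted p up to 0.0666 over its alternatives. That of CD59 was lost in 8 of 21 alternatives, with limma adjusted p up to 0.159. Leaving out either whole eye library, central replicate 1 or 3, or any peripheral library ended the CD59 call. C3, on which all complement pathways converge, measured 86.05 in whole retina replicate 1, 5.19 in replicate 2, 13.1 and 10.6 in whole eye and 2.77 to 4.57 in the regions. Its fall from whole to central retina (-2.50, limma adjusted p = 0.0146) was lost without whole retina replicate 1 and under the replicate block. Its call in peripheral retina was lost in 8 of 21 alternatives, among them those without whole eye replicate 2, whole retina replicate 1 or any peripheral library. C1S, a protease of the C1 complex, measured 24.4 and 8.88 in whole retina and 0.17 to 0.19 in central retina, and was tested only through its level in the whole tissues.

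MHC class II genes, whose products CD74 chaperones, were listed with their regulators and proteases. Of 30 names, 12 were measured and 11 tested. In central and in peripheral retina, 8 of 11 were called lower than in whole retina, beside 29.7% and 24.3% of all genes tested. Of the 7 with a mean of at least 1 in both groups, 4 were called lower. MAMU-DRA, the alpha chain of the DR molecule, measured 158 and 116 in whole eye, 448 and 128 in whole retina, 3.49 to 6.06 in central retina and 4.66 to 10.7 in the periphery. It fell by 5.47 from whole to central retina (SE 0.42, limma adjusted p = 1.68e-06), and Mamu-DPA fell by 4.00 (3.62e-07). MAMU-DMA measured 60.8 and 16.4 in whole retina and 0.58 to 1.13 in central retina, where its mean was under 1. The transcription factor genes RFX5, RFXANK and RFXAP, which act on MHC class II promoters, were the 3 not called: RFX5 measured 13.6 to 17.4 in the whole libraries and 11.8 to 15.4 in the regional ones. LGMN, a lysosomal protease, fell by 1.65 (limma adjusted p = 0.000388) and its call against whole eye was lost without whole eye replicate 1 in both regions, and without peripheral replicate 2 in peripheral retina (adjusted p up to 0.113 and 0.189).

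Between central and peripheral retina 0 of the 11 MHC class II genes passed in limma, and 0 had an unadjusted p under 0.05. Their median difference there was -0.02, and in central against whole retina -2.94. Between whole retina and whole eye, MAMU-DRB1 was called higher in whole retina, a call lost without whole retina replicate 1, when its difference was 1.41, against 1.64 with all libraries. It is named because it was the 1 gene of the list called there, a choice made after its values were seen. The MHC genes of macaques have near-identical copies, and the handling of reads that fit several copies is not stated, so single MHC genes are uncertain.

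MHC class I genes and their peptide loading partners moved less. Of 21 listed, 13 were tested. Of these, 10 were lower in central and 11 in peripheral than in whole retina, beside 29.7% and 24.3% of all genes tested. Among the 11 with a mean of at least 1 in both groups, 9 and 10 were lower. Against whole eye the counts were 5 and 6 of 13, beside the 34.2% and 27.6% of all genes called lower there, and the central count is near that background. B2M, the light chain of class I molecules, measured 839 and 758 in whole eye, 1810.2 and 695 in whole retina, 43.8 to 71.9 in central retina and 56.6 to 68.0 in the periphery. Its difference between central and whole retina was -4.35 (SE 0.31, limma adjusted p = 8.48e-07), against -4.79 for CD74. The endoplasmic reticulum chaperones CALR, PDIA3 and CANX, present in all cells, differed by -0.54, -1.09 and -0.72 in the same comparison (limma adjusted p = 0.00778, 0.00011 and 0.00424). The CALR call was lost under quantile scaling and without whole retina replicate 1, and that of CANX without replicate 2. MAMU-E, a class I heavy chain, measured 299.8 and 86.7 in whole retina, 44.3 to 68.5 in central retina and 24.4 to 32.9 in the periphery. The difference between the regions for MAMU-E was 0.87 (limma adjusted p = 0.0872), in the direction opposite to that of CD74. PSMB10, an immunoproteasome subunit, differed by 0.81 between the regions (limma adjusted p = 0.118). Between the regions 0 of the 13 passed in limma, and MAMU-E and PSMB10 were the 2 with an unadjusted p under 0.05. Whole retina replicate 1 is in neither group but shares the variance. Leaving it out kept these 2 differences at 0.87 and 0.81, with SEs of 0.17 and 0.18 (0.33 and 0.34 with it). ERAP1, a peptide-trimming enzyme gene, differed by -0.41 (SE 0.10) in that fit. Whether genes of this list pass between the regions therefore depends on that library. The median difference of the 13 in central against whole retina was -1.09.

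**Figure D4:**
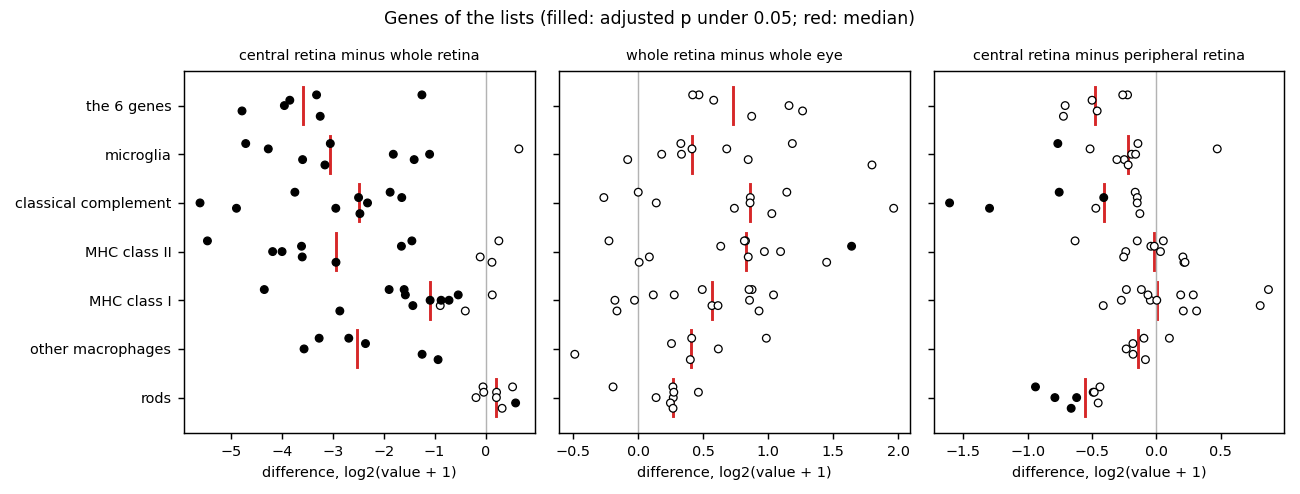
Difference in mean log2(value + 1) for each tested gene of 7 lists in 3 comparisons; points are genes, filled where the limma adjusted p is under 0.05, and red bars are list medians. In central against whole retina, the 6 genes, with a median of -3.59, and the medians of the microglia, complement, MHC class II and macrophage genes lie below 0. Single genes of these lists, such as P2RY12, RFXANK and RFXAP, lie above 0 there, and 7 of the 8 rod genes are not called.

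Markers of other immune cells were measured beside the set. Of 10 genes of macrophages outside the retina, 6 were measured and tested. All 6 were called lower in each comparison of a region with a whole tissue, beside 24.3% to 34.2% of all genes tested. However, only CD14 had a mean of at least 1 in both groups. FOLR2 was 10.9 and 6.23 in whole eye, 19.3 and 8.94 in whole retina and 0.13 to 0.66 in the regions, and VSIG4 was 3.33 to 8.14 in the whole libraries and at most 0.13 in the regions. Summed, the 6 macrophage genes came to 31.9 to 49.0 in whole eye, 51.6 to 90.05 in whole retina, 3.40 to 4.72 in central retina and 3.93 to 4.74 in the periphery. The whole retina range lay above that of whole eye, but 0 of the 6 were called between these tissues and the genes did not move alike. CD14 was 25.4 and 16.7 in whole eye and 49.7 and 35.0 in whole retina. LYVE1 went the other way, at 2.73 and 2.25 in whole eye and 1.82 and 1.19 in whole retina. FOLR2 was lower in whole retina replicate 2 than in whole eye replicate 1. The 5 dendritic cell genes measured, of 11 listed, summed to 10.6 to 28.3 in the whole libraries, 3.60 to 4.40 in central retina and 7.29 to 9.35 in the periphery, and XCR1 was listed at 0 in all 7 regional libraries. The 3 granulocyte and mast cell genes measured, of 8 listed, were high in whole eye only, at 63.7 to 74.7 against at most 4.14, and S100A8 and CPA3 were listed at 0 in all regional libraries. Of 13 lymphocyte genes 3 were measured, 1 of them CD2, so their sum was not read. The part of these cells in the values of the 6 genes was not tested.

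The 2 whole retina libraries differed widely in these genes. Replicate 1 was more than 2-fold above replicate 2 for 5 of the 6, against 3.63% of all genes tested, and the other, CX3CR1, was 1.62-fold above. The ratio was 4.26 for C1QC, 4.02 for C1QA, 3.74 for CD74, 2.34 for CSF1R and 2.325 for AIF1. Between the 2 whole eye libraries only C1QC, at 2.13, exceeded 2-fold, against 1.42% of all genes. Replicate 2 lay close to whole eye: its ratio to the whole eye mean ran from 0.716 for C1QA to 1.23 for CD74.

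On the log2(value + 1) scale, replicate 1 minus replicate 2 was 1.90 for CD74, 1.80 for MAMU-DRA and 1.38 for B2M. Some genes of T and natural killer cells and of dendritic cells were also high in replicate 1. CD2, the third lymphocyte gene measured, was 19.5 in that library and 27.35 in replicate 2. Its values look exchanged with those of CD200 in some libraries, so it was not read for or against the others. CD3G, a T cell receptor subunit, was 4.84 in replicate 1 and at most 0.37 in any other library, and NKG7, a granule gene of cytotoxic lymphocytes, was 9.46 against at most 1.70. XCR1 and LAMP3, genes of dendritic cells, were 3.44 and 3.07 against at most 0.08 and 0.25 elsewhere. IRF8, a myeloid transcription factor, was 21.4 there and 4.55 in replicate 2, and CIITA, the class II transactivator, was 4.68 there and at most 0.81 elsewhere. The haemoglobin gene HBB went the other way, at 109.7 in replicate 1 and 383 in replicate 2. RPE65, of the pigment epithelium, differed by -0.26. The part of such cells in the values of the 6 genes was not tested.

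Counts were repeated without whole retina replicate 1, an alternative chosen after the data were seen. The 6 genes were all called lower in central retina than in whole retina and than in whole eye, all 6 were lower in peripheral retina than in whole eye, and 5 were lower in peripheral than in whole retina. Of the microglia genes, P2RY12 was again not called in these comparisons. Differences between the 2 regions keep their size in that fit, since neither region holds the library left out. IRF8 was 4.55 in whole retina replicate 2 and 2.51 and 1.94 in whole eye. Among the complement genes C3, and among the MHC class II genes MAMU-DQB1, lost their calls against whole retina in both regions. CIITA was replaced among the MHC class II genes tested by HLA-DQA1, which entered through a value of 1.05 in whole retina replicate 2. HLA-DQA1, at 0 to 0.08 in the regions, was then called lower than whole retina, a call that rests on that same value and is not read. The MHC class I genes did not all lie lower in central retina than in whole retina replicate 2. B2M was 695 in that library and 43.8 to 71.9 in central retina, but TAP2 was 3.62 there and 5.47 to 8.76 in central retina. Of all genes tested in that fit, 25.8% were called lower in central and 19.3% in peripheral than in whole retina, and 35.9% and 29.5% than in whole eye.

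**Figure D5:**
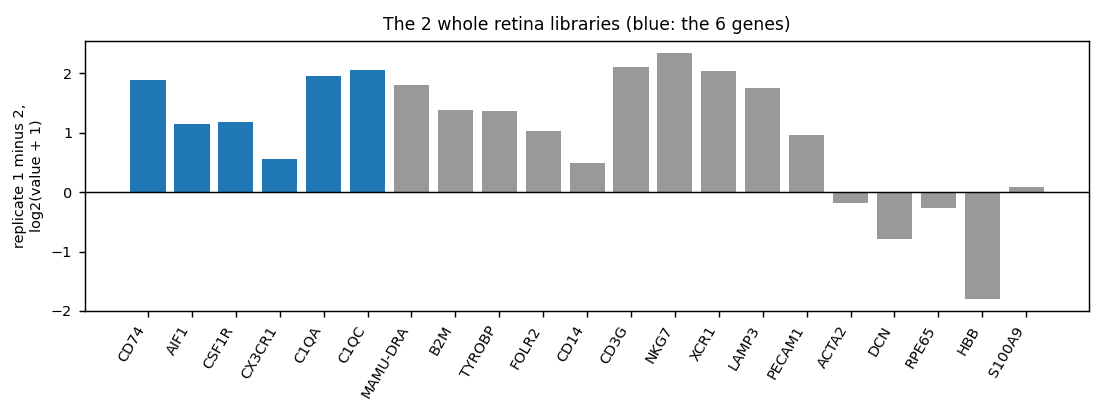
Difference in log2(value + 1) between whole retina replicate 1 and replicate 2 for the 6 genes (blue) and 15 other genes (grey). Bars of the 6 genes run from 0.56 (CX3CR1) to 2.05 (C1QC), and those of CD3G, NKG7, XCR1 and LAMP3 reach 1.76 to 2.34, while HBB lies at -1.79.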

How the data were processed

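Each deposited table holds a normalized signal per gene for 1 library, per the file headers; how the authors normalized it is not stated. Per the submitters' processing notes, the processing used GSNAP, which aligns reads, and HTSeq, which counts them, with no version given. Build, annotation and strand handling: not given in the sources used here. No coordinates or sequences are therefore printed.

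Of 13083 entries per table, 27 without a value and 61 exact duplicates were dropped, leaving 12995. The tissue in each label set the group. The 11933 genes whose mean reached 1 in any group were tested with limma 3.58.1 (R 4.3.3) on log2(value + 1): 11 libraries, 4 groups, variance trend, two-sided, Benjamini-Hochberg adjustment within each of 6 comparisons, threshold 0.05. All groups share 1 variance per gene. The procedure was tested on simulated data. Other tables and figures were made with Python 3.11.15, numpy 2.4.6, pandas 2.3.3 and matplotlib 3.10.9.

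The members, gene lists and rules were chosen with earlier results of these data known. Named genes are the 6 members, the 4 ligands, up to 6 tested genes of each list with the highest mean over the 11 libraries, and 3 most similar genes per member; marker genes and genes that stood out were named besides, after their values were seen. Alternatives were other pseudocounts (0.1, 0.5), no low-value filter or a minimum of 5, quantile and upper quartile scaling, no trend, library weights, only the groups compared, a replicate block, sums over names sharing a start, and leaving out each library. Some named genes are not reported here.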

Additional observations from a re-analysis of the deposited data

Results flagged for a closer look

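In groups of 4 libraries, a value was marked where its gap to the nearest other, divided by the range of the group, was above Dixon's 95% critical value, which chance gives in about 1 in 20 groups. Of 34 groups examined, all central retina, 3 were marked, and none belongs to the 6 genes. CSF1, a ligand gene of CSF1R, was 1.12 in central replicate 4 and 0.83 to 0.86 in the other central libraries (gap over range 0.897). CALR was 126.71 in central replicate 1 and 104 to 107 in the others (0.892). CANX was 71.75 in central replicate 2 and 51.5 to 53.5 in the others (0.9001).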

How the results depend on the processing

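Every call of the 6 genes between a region and a whole tissue held in all alternatives, except 4: CX3CR1 in peripheral against whole retina without whole retina replicate 1 (limma adjusted p = 0.0699), CX3CR1 in central retina against whole eye under quantile scaling (0.239) or without whole eye replicate 1 (0.1), and C1QC in peripheral retina against whole eye without whole eye replicate 1 (0.0854). For whole retina minus whole eye, the difference turned to -0.11 for AIF1 and -0.40 for C1QA without whole retina replicate 1, and without replicate 2 it was 1.05 and 1.56. In central against peripheral retina, 1 member (CSF1R) was called lower with a pseudocount of 0.1 or 0.5, a minimum mean of 5, upper quartile scaling or library weights, and 2 (CSF1R, limma adjusted p = 0.00887, and C1QC, 0.0349) with only the 2 groups compared. Library weights called 4612 genes there, against 2538. In whole retina against whole eye, 143 genes were called with a minimum mean of 5 and 163 with only the 2 groups, against 271. A minimum mean of 5 removed CX3CR1, so that alternative gives no value for it.

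Leaving out 1 library at a time called 0 to 1 member and 1328 to 2889 genes in central against peripheral retina (1328 without peripheral replicate 2, 1654 without central replicate 4). It called 0 to 5 members and 244 to 784 genes in whole retina against whole eye (784 without whole retina replicate 2). Same-numbered libraries share only a number: the correlations of their deviations in central and peripheral retina were -0.14, -0.06 and 0.36. With the replicate block, CX3CR1 was called lower in peripheral retina than in whole eye (limma adjusted p = 0.0325), 1 member (CSF1R) was called lower in central than in peripheral retina, and genes called were 120 in whole retina against whole eye, 3719 in central and 2384 in peripheral against whole retina (5806 and 4077 without it).

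Quantile scaling moved the median of all genes from -0.10 to 0.12 in central and from -0.08 to 0.17 in peripheral against whole retina, and from -0.17 to 0.11 and -0.14 to 0.14 against whole eye. The share of calls that were higher then went from 38.9% to 59.4%, 28.8% to 60.6%, 38.1% to 59.2% and 30.9% to 61.7%. With upper quartile scaling it was 45.6% in peripheral against whole retina, 47.6% in peripheral retina against whole eye and 44.2% in central against peripheral retina, from 58.8%. Depth is unknown, so counting error at low values, CX3CR1 and AIF1 among them, could not be set.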
